A study of Mus musculus with 91 samples.

Results

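CITCO is a small molecule known as an activator of the human form of the constitutive androstane receptor (CAR, gene Nr1i3). The comparison described here is that of 5 livers of C57BL mice, which keep their own mouse CAR and pregnane X receptor (PXR, gene Nr1i2), after daily CITCO against 5 livers of the control cohort that the labels name for them. They were taken by their titles, and are 10 of 91 liver arrays in 19 groups. CITCO was injected into the peritoneum of adult male mice at 10 mg/kg for 28 days. The controls, labelled CMC Co4, were male C57BL mice assigned to carboxymethylcellulose (CMC), a vehicle, for the same 28 days at a compound dose of 0 mg/kg. Whether they were injected like the treated mice is not stated in the sources used here, and exact ages were not given. The series states that mice were put into groups of 5 at random, so each array was taken as 1 mouse. Side groups were male hCAR/hPXR mice, which carry the human receptors in place of the mouse ones, given the same CITCO dose and time (n = 5) or CMC (n = 5), and 17 C57BL livers of 4 other CMC cohorts, Co1, Co2, Co3 and Co5. Also set beside them were livers given phenobarbital at 0.05% (weight per volume) or water for 28 days, and water for 56 days. Others were given corn oil or methapyrilene (1000 ppm) for 28 days (n = 5 in each of these groups). The remaining treated groups served only the model and the ranking of Cyp2c29. The question was which genes of C57BL liver differ after a compound chosen for the human receptor.

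CAR is a nuclear receptor of the hepatocyte that moves into the nucleus when activated, pairs with the retinoid X receptor and binds hormone response elements near its target genes. Its best known targets are drug-metabolising enzymes, led in mouse liver by Cyp2b10, and include members of the Cyp2c and Cyp3a families, glutathione transferases and export pumps. PXR shares many of these targets. Cyp2c29 encodes an abundant cytochrome P450 of mouse liver that oxidises drugs and fatty acids and responds to phenobarbital, a classical CAR activator. CAR and PXR differ in the ligands they accept between mouse and human.

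The sequences before the start sites of Cyp2c29 and Cyp2b10 are shown because the first was the only gene called in C57BL livers, and the second the only gene called for a different response in hCAR/hPXR livers. They come from RefSeq on GRCm38.p6 and run 250 bases up to the start site, 5′ to 3′ on the gene's strand. Capitals mark AGGTCA, the core letters bound by many nuclear receptors, searched on both strands. The Cyp2c29 window is chr19:39286835-39287084 (+ strand), with a match at position -154 from the start site. The Cyp2b10 window is chr7:25897408-25897657 (+ strand), in which these letters do not occur. Of 32851 such windows, 14% held the letters, and a match is a description of the letters only.
Cyp2c29: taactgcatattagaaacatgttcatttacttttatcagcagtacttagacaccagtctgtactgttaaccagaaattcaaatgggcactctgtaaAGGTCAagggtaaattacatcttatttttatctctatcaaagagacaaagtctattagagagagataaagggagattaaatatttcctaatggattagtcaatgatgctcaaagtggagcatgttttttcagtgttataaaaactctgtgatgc
Cyp2b10: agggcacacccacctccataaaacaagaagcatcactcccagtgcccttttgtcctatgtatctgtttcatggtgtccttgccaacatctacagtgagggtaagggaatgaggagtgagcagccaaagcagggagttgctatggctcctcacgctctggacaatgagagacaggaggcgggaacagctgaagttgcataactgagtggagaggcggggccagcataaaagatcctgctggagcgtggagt

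The deposited values are on a log2 scale, so a difference of 1 is a factor of 2 in signal, and medians of the 91 arrays lay between 5.18 and 5.36. With 5 arrays a group, the number of arrays limits the precision of each value. Within the comparison the fourth Co4 liver stood apart. The first principal component of the 10 livers held 25.9% of their variance, and its loading was 0.888 for that liver and between -0.239 and 0.123 for the others. Values without it are given where a result rests on it. The livers carried their labelled tissue's markers: 21 hepatocyte genes averaged 14.05 to 14.08 in CITCO livers and 14.05 to 14.21 in Co4 livers, and albumin was at 15.16 in both groups. Because a whole tissue was measured, fewer cells of a type and less RNA per cell cannot be told apart.

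Of 18193 genes tested with limma and adjusted by Benjamini and Hochberg, 1 gene passed an adjusted p below 0.05 as higher after CITCO (0.0055%) and 0 as lower. Without adjustment 874 genes had a p below 0.05 (4.8%), 460 higher (2.53%) and 414 lower (2.28%). All 5 treated livers lay above all 5 controls in 102 genes (0.561%) and below them in 85 (0.467%). The median difference of all genes was 0.01, and 9666 of the 18193 lay above 0. Without Co4 liver 4 the unadjusted counts over all genes were 239 higher and 267 lower, which is the background for the lists given without that liver.

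The receptors themselves were present. Nr1i3, which encodes CAR, measured 9.14, 9.17, 9.48, 9.46 and 9.72 in the CITCO livers and 9.31, 9.70, 9.52, 9.33 and 8.78 in the controls. The groups overlapped, with a difference of 0.06 ± 0.227 (SE). Nr1i2, which encodes PXR, averaged 7.24 ± 0.194 (SD, n = 5) after CITCO and 7.51 ± 0.483 in Co4. Rxra, the shared partner, averaged 10.90 ± 0.101 and 10.83 ± 0.085. In the hCAR/hPXR controls the mouse probe sets of Nr1i3 and Nr1i2 averaged 5.86 and 4.02, against 9.33 and 7.51 in Co4. None of the 31 measured nuclear receptors and partners of the list passed, and their median difference was -0.0033 (0.02 without Co4 liver 4).

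Cyp2c29 rose 1.48-fold. The CITCO livers measured 13.34, 13.34, 13.25, 13.35 and 13.54, and the Co4 livers 12.83, 12.58, 12.95, 12.84 and 12.76. Every treated liver lay above every control. The means were 13.36 ± 0.105 and 12.79 ± 0.139 (SD, n = 5 each), a log2 difference of 0.57 (95% interval 0.35 to 0.79, limma adjusted p = 0.0265). Cyp2c29 was measured by 1 probe set, and close relatives in the Cyp2c family may add to its signal.

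The call stood near the threshold. With 1 liver left out at a time the difference stayed between 0.516 and 0.610, and the adjusted p ran from 0.0217 to 0.180. The gene no longer passed without CITCO liver 1, 2, 4 or 5, or without Co4 liver 2, 4 or 5. With only these 2 groups in the model the adjusted p was 0.0947. Against the other CMC cohorts in place of Co4 the difference was 0.49 with Co1, 0.555 with Co2, 0.38 with Co3 and 0.43 with Co5, and with Co3 the adjusted p was 0.141. Co4 itself did not pass against the mean of those 4 cohorts in Cyp2c29 (-0.10, adjusted p = 0.479). Its mean of 12.79 was the lowest among the CMC cohorts of C57BL mice.

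**Figure D1:**
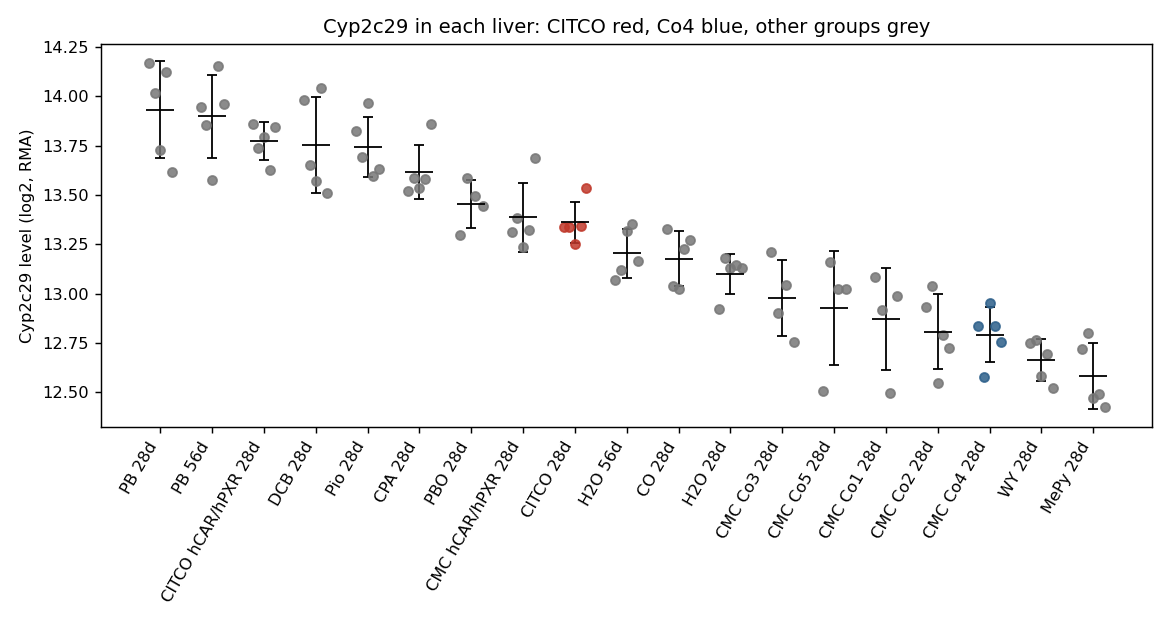
Cyp2c29 level (log2, RMA) in each liver of the 19 groups, ordered by group mean. Points are livers, horizontal ticks are group means and bars are 1 SD. The 5 CITCO livers (red) sit between 13.25 and 13.54, above the 5 Co4 livers (blue) at 12.58 to 12.95.

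Across the 19 groups Cyp2c29 was highest in the livers given phenobarbital for 28 days (13.93 ± 0.245) and lowest after methapyrilene (12.58 ± 0.168). The CITCO group of C57BL mice stood ninth with 13.36. The next groups down were the water controls of 56 days (13.20), corn oil (13.18) and the water controls of 28 days (13.10). The CITCO range overlapped those of the first 2 of these and lay above the third. All 5 CMC cohorts of C57BL mice lay lower, with means from 12.79 to 12.98. The 5 CITCO livers lay above every one of the 17 livers of the other CMC cohorts, whose highest value was 13.21. Next above CITCO stood the CMC controls of hCAR/hPXR mice (13.39 ± 0.174), whose range of 13.24 to 13.68 overlapped it.

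**Figure D2:**
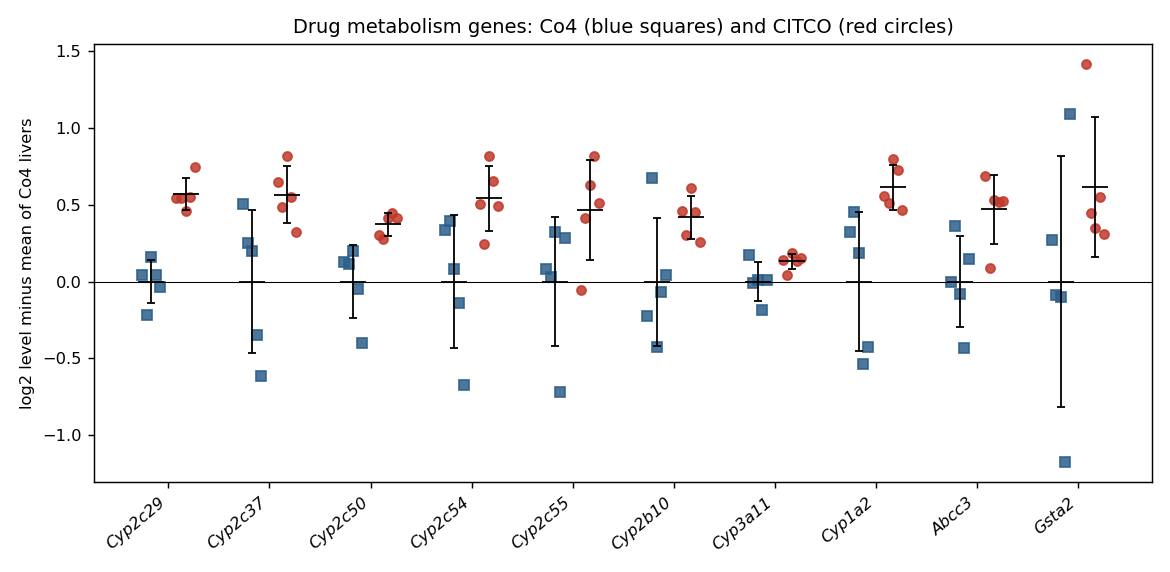
Levels of 10 drug metabolism genes in each liver, as the log2 level minus the mean of the 5 Co4 livers. Blue squares are Co4 and red circles CITCO livers, ticks are means and bars 1 SD. The red points clear all blue points in Cyp2c29, Cyp2c50 and Cyp1a2, and overlap them in the other 7 genes.

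The other members of the Cyp2c family did not pass. Cyp2c50 measured 13.67, 13.64, 13.78, 13.81 and 13.78 after CITCO, and 13.49, 13.48, 13.56, 13.31 and 12.97 in Co4. Its groups did not overlap, but the difference of 0.37 had an adjusted p of 0.976. Cyp2c54 differed by 0.54 (95% interval -0.02 to 1.11) and Cyp2c37 by 0.57 (-0.07 to 1.2). In both, the lowest values were those of Co4 livers 4 and 5, at 12.16 and 11.63 for Cyp2c54 and 11.45 and 11.19 for Cyp2c37. Cyp2c55, which is low in untreated liver, averaged 7.37 after CITCO and 6.91 in Co4 (difference 0.46, -0.28 to 1.21). Cyp2c38 (-0.16) and Cyp2c39 (-0.28) had differences below 0, and Cyp2c65 stayed dim at 3.52 and 3.48. So within 1 gene family the differences of the 8 members named here ran from -0.28 to 0.57.

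Cyp2b10, the classical CAR target, measured 6.07, 5.92, 6.22, 6.06 and 5.87 after CITCO and 5.39, 6.28, 5.18, 5.54 and 5.66 in Co4. Co4 liver 2 was higher than all treated livers. The difference was 0.42 (95% interval -0.51 to 1.35), and the gene's other 2 probe sets gave 0.92 and 1.14, neither of which passed. Cyp2b9, a relative, was dim at 3.99 and 3.86. Cyp3a11, the main Cyp3a enzyme and a PXR target, averaged 14.58 ± 0.0518 and 14.45 ± 0.129, near the top of the scale, with a difference of 0.13 (0.03 to 0.23) and an adjusted p of 0.91.

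Counted over the list, 38 of 46 CAR targets were measured: 1 rose, 0 fell and 37 did not pass. Their median difference was 0.06, against 0.01 for all genes, and 5 had an unadjusted p below 0.05 as higher (background 2.53%) and 0 as lower. Without Co4 liver 4 the count of unadjusted members was 3 and the median 0.05. The largest differences among those that did not pass were those of Gsta2, a glutathione transferase (0.62 ± 0.382), and Cyp1a2 (0.61 ± 0.183). Abcc3, an export pump for conjugates, differed by 0.47 ± 0.195, with 4 of 5 treated livers above all controls. For the same list 26 members rose after 28 days of phenobarbital against water (0.572% of all genes), with a median of 1.09. Of the 16 measured PXR targets none passed, and their median difference was 0.04. Among them 2 had an unadjusted p below 0.05 as higher (background 2.53%). Without Co4 liver 4, 0 of the 16 had an unadjusted p below 0.05, 8 lay above 0 and 8 below, and the median was 0.0042.

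Of 21 glutathione transferases none passed, and the median was 0.05 (0.02 without Co4 liver 4). Of 23 sulfotransferases and glucuronosyltransferases none passed, 3 had an unadjusted p below 0.05 as higher (background 2.53%) and the median was 0.13. These were 1 and 0.08 without Co4 liver 4. In that list Ugt2b1, a glucuronosyltransferase, had all 5 treated livers above the controls, with a difference of 0.52 ± 0.19. Of 28 targets of NRF2, the sensor of oxidative stress, none passed, and the median was 0.06. Among them 2 had an unadjusted p below 0.05 as higher (background 2.53%) and 1 as lower (background 2.28%). The median turned to -0.04 without Co4 liver 4, with 13 above and 15 below 0 and 0 with an unadjusted p below 0.05. Of 44 targets of the fatty acid receptor PPARα none passed (median -0.06, and -0.02 without Co4 liver 4), with Cyp4a14, an omega-hydroxylase, at -0.95 ± 0.816. Alas1, the first enzyme of haem synthesis, ranged from 11.20 to 13.13 after CITCO and from 11.79 to 12.99 in Co4 (difference -0.06).

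Beside Cyp2c29, 6 of 21 measured perivenous genes, those of hepatocytes around the central vein, had an unadjusted p below 0.05 as higher counting Cyp2c29 itself (background 2.53%), and 0 as lower (background 2.28%). The difference was above 0 in 18 of the 21, beside 9666 of all 18193 genes, and the median was 0.32 against 0.01 for all genes. Cyp2c29 was the 1 member that passed. The CAR list shares Aldh1a1, Cyp1a2, Cyp2c29, Cyp2c37, Cyp2c50, Cyp2c54 and Gstm3 with it.

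Axin2, a feedback inhibitor that marks Wnt signalling, measured 7.35, 7.15, 7.51, 7.87 and 7.26 after CITCO and 7.40, 6.89, 6.95, 6.16 and 6.57 in Co4. The groups overlapped by Co4 liver 1, and the difference was 0.63 ± 0.156 (adjusted p = 0.31). Lgr5, a receptor that strengthens Wnt signalling, differed by 0.56 ± 0.257. In Lgr5, Co4 livers 4 and 5 held the 2 lowest of the 10 values, and the other 3 controls lay within the range of the treated livers. Cyp1a2, which metabolises caffeine and aromatic amines, measured 13.31, 13.26, 13.55, 13.48 and 13.22 after CITCO and 13.08, 13.21, 12.94, 12.21 and 12.33 in Co4. Its groups did not overlap, with a difference of 0.61 and an adjusted p of 0.809. The highest control value was 13.21 and the lowest treated value 13.22. In Cyp1a2 and Axin2 the 2 lowest of the 10 values were also those of Co4 livers 4 and 5.

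Without Co4 liver 4, 4 of the 21 perivenous genes had an unadjusted p below 0.05 and the median was 0.29. Co4 liver 5 stayed in that count. The means over the list overlapped between the groups. They were 10.81, 10.81, 11.07, 11.11 and 11.13 in the CITCO livers and 10.83, 10.71, 10.86, 10.52 and 10.54 in Co4, so that Co4 livers 4 and 5 were the lowest. Against the other 4 CMC cohorts, 8 of the 21 passed as higher and 0 as lower (15.6% of all genes passed either way, 10.4% as higher), among them Axin2 (0.51, adjusted p = 0.00194) and Cyp1a2 (0.43, adjusted p = 0.0367). Co4 set against the same cohorts had 3 of the 21 as higher, where 9.31% of all genes were higher, and a median of 0.01. Without Co4 liver 4 it had 1 of the 21 as higher, where 1223 of the 18193 genes were. The 15 measured periportal genes had a median of -0.09 in CITCO against Co4 (-0.18 without Co4 liver 4), and 0 passed.

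**Figure D3:**
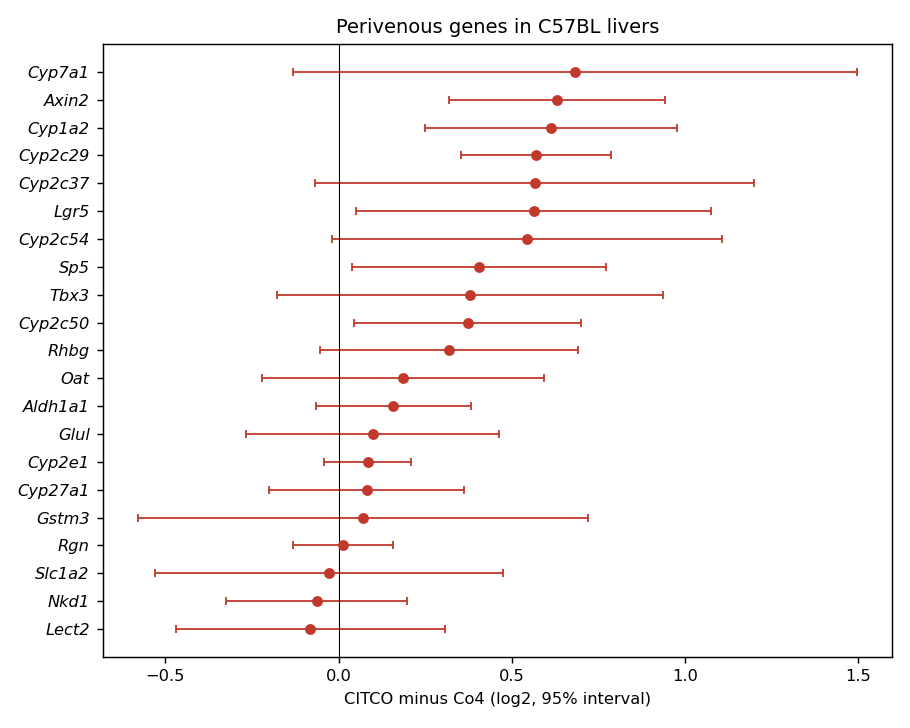
Differences between CITCO and Co4 livers (log2) for the 21 measured perivenous genes, with 95% intervals from limma, not adjusted for the number of genes. Points lie above 0 for 18 genes, and the intervals of 6 stay above 0.

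The 12 genes of lowest p among those with all 5 treated livers above the controls were, beside Cyp2c29 and Cyp1a2, Wnk4, Zyg11a, Trit1, Vapb, Ccdc85b, Sfrp2, Vapa, Ing2, Vps33a and Glrx5. Only Cyp2c29 passed. Wnk4, a kinase that regulates salt transport, measured 6.12, 5.98, 5.96, 6.43 and 5.62 after CITCO and 5.10, 5.41, 5.49, 4.82 and 5.43 in Co4. Its difference was 0.77 ± 0.179 (adjusted p = 0.264), and against the other CMC cohorts it was 0.96 and passed. Zyg11a, which encodes a substrate receptor of an E3 ubiquitin ligase, averaged 5.24 and 4.73 (0.51 ± 0.12). Vapa and Vapb, anchors of membrane contacts at the endoplasmic reticulum, differed by 0.30 and 0.45. Both fell in Co4 against the other cohorts (-0.28 and -0.47, adjusted p = 0.00219 and 0.00012), while CITCO against those cohorts gave 0.02 and -0.02. Of the 3 probe sets of each gene, 1 of Vapa and 1 of Vapb had a difference below 0.

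The 12 of lowest p with all treated livers below the controls were Il18bp, Psme1, Lcn2, Saa3, Map1lc3b, Serpina3n, Apex1, Slc4a1, Orm2, Cp, Ifitm2 and Tgm1, and none passed. Il18bp, which neutralises interleukin 18, measured 6.55, 6.39, 6.19, 6.05 and 6.07 after CITCO and 6.79, 6.60, 7.01, 7.54 and 7.70 in Co4. The difference was -0.88 ± 0.195 (adjusted p = 0.204). Psme1, an activator of the proteasome, averaged 10.27 ± 0.071 and 10.66 ± 0.154 (-0.39 ± 0.0987). Map1lc3b, a protein of autophagosomes, differed by -0.41 ± 0.116, and Apex1, a DNA repair enzyme, by -0.40 ± 0.121. In Map1lc3b, Apex1, Tgm1, Ifitm2 and Serpina3n the highest of the 10 livers was Co4 liver 4. Lcn2, Saa3, Serpina3n, Orm2 and Cp belong to the acute phase list.

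The 6 largest differences of the comparison, those of Lcn2, Mt2, Saa2, Orm2, Mt1 and Saa3, were below 0 and belong to acute phase genes, which hepatocytes switch on under inflammatory signals such as interleukin 6. Lcn2, an iron-scavenging protein, measured 8.40, 7.22, 9.16, 10.26 and 10.41 after CITCO and 13.35, 13.18, 11.34, 13.94 and 12.96 in Co4. The groups did not overlap, with a difference of -3.87 ± 0.979 that did not pass (adjusted p = 0.31). Saa2, a serum amyloid, measured 10.50, 9.15, 11.89, 12.83 and 13.21 after CITCO and 14.28, 14.56, 13.90, 14.62 and 14.26 in Co4 (-2.81 ± 1.08, adjusted p = 0.893). The treated livers were spread far more than the controls in Saa2. Saa3, made also by macrophages, differed by -2.01 ± 0.553, and Orm2, a carrier protein of plasma, by -2.78 ± 0.888.

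**Figure D4:**
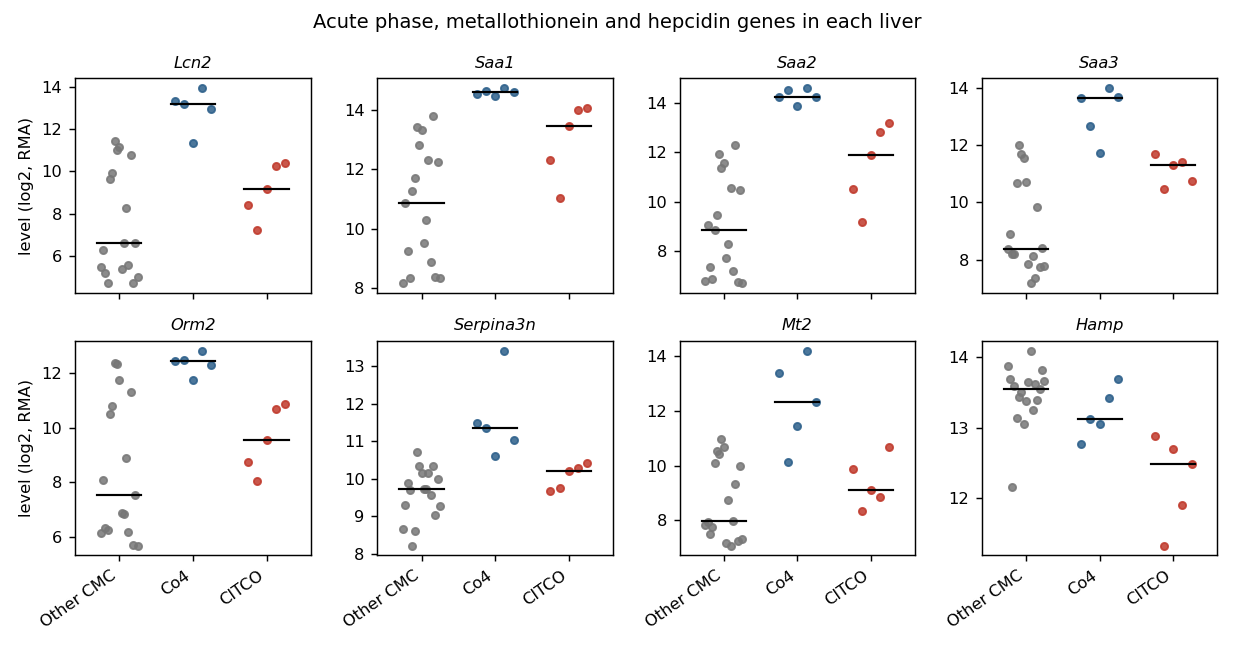
Levels (log2, RMA) of 8 acute phase, metallothionein and iron genes in each liver of the 17 other CMC controls (grey), 5 Co4 controls (blue) and 5 CITCO livers (red), with black lines at the medians. In the first 5 panels and in Serpina3n all blue points lie above all red ones, and in those first 5 panels the grey points reach lower than both. Hamp has its lowest value in a red point at 11.32.

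Over the list, 49 of 51 acute phase genes were measured and 0 passed. The difference was below 0 in 44, 22 had an unadjusted p below 0.05 as lower (background 2.28%) and 0 as higher, and in 13 all treated livers lay below all controls (background 0.467%). The median difference was -0.49. Without Co4 liver 4 the median was -0.24, with 13 unadjusted as lower. The mean over the 49 genes ran from 10.53 to 10.98 in CITCO livers, from 11.16 to 12.21 in Co4 and from 10.02 to 11.26 in the other CMC cohorts.

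The control cohort stood apart in these genes. Against the mean of the other 4 CMC cohorts, Co4 had 28 of the 49 acute phase genes higher and 0 lower, with 9.31% of all genes higher and 6.3% lower in that comparison. Lcn2 was 5.63 higher in Co4 (adjusted p = 4.3e-07), Saa3 4.17 and Saa2 5.44. The Co4 livers in Saa1 and Saa2 all lay above every liver of the other cohorts. CITCO livers set against the same cohorts had 6 of the 49 higher and 2 lower, where 10.4% of all genes were higher and 5.22% lower, so these counts lay near the background. Among the 6 was Saa3, 2.16 higher (adjusted p = 0.000184). In Lcn2 the cohorts themselves differed: Co1 averaged 5.43, Co3 6.45, Co5 6.78 and Co2 10.63, against 12.96 in Co4 and 9.09 in CITCO livers. What the cohort state contributes to the difference between CITCO and Co4 was not tested. The hCAR/hPXR controls were also high, with list means of 11.25 to 12.26, and Lcn2 there differed by -2.71 after CITCO, which did not pass.

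Windows before the start sites of 4 acute phase genes are shown because these genes are among the 6 with the largest differences below 0. They are 250 bases long, from RefSeq on GRCm38.p6, 5′ to 3′ on the gene's strand, and capitals mark TTGCNNAA on either strand, a core bound by C/EBP factors. The positions are chr2:32387740-32387989 (- strand) for Lcn2, chr7:46715677-46715926 (- strand) for Saa3, chr7:46751583-46751832 (+ strand) for Saa2 and chr4:63362199-63362448 (+ strand) for Orm2. Each window held 1 match (that of Orm2 reads the same on both strands), and 9.56% of all 32851 windows held one. Among other acute phase genes read singly, the windows of Mt2 and Saa1 also held a match and that of Serpina3n held none. Of the 40 measured acute phase genes with a window in the table, 19 held the letters in at least 1 window, against 10.8% of the 27025 genes with one. TTCNNNGAA, the core of STAT sites, was held by 8 of the 40 against 8.13% of genes. A form of the NF-kB site was held by 0 of the 40 and by 0.414% of genes.
Lcn2: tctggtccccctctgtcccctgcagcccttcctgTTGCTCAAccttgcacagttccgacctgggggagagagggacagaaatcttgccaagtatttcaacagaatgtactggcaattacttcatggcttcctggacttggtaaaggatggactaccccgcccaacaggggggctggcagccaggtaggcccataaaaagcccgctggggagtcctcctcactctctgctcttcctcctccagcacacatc
Saa3: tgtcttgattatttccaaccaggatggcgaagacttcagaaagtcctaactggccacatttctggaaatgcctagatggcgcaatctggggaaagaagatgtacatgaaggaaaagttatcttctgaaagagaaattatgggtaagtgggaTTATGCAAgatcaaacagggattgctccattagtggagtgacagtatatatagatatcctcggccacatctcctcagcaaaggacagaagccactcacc
Saa2: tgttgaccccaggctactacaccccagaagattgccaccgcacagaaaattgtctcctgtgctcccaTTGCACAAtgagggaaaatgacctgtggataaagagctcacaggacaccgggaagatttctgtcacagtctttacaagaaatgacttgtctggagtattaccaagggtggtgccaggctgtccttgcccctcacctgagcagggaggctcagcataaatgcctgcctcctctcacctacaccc
Orm2: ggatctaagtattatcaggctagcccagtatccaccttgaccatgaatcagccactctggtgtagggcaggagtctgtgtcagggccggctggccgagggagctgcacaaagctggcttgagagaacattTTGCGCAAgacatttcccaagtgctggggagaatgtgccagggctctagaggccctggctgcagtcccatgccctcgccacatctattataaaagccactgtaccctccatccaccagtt

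Mt2, which binds zinc and copper, measured 9.88, 8.35, 9.12, 8.85 and 10.67 after CITCO and 13.39, 10.12, 11.43, 14.20 and 12.33 in Co4. The groups overlapped, with a difference of -2.92 ± 0.84, and Mt1 gave -2.50 ± 0.763. Hamp, which encodes the iron hormone hepcidin, measured 12.89, 11.32, 12.70, 11.90 and 12.48 after CITCO and 12.76, 13.12, 13.05, 13.42 and 13.69 in Co4 (-0.95 ± 0.296). Unlike Lcn2, Hamp was not called in Co4 against the other cohorts (-0.26, adjusted p = 0.516), and it fell in CITCO livers against them (-1.21, adjusted p = 9.08e-05). Both of its probe sets gave -0.95. Of the 21 measured genes of this list, 7 had an unadjusted p below 0.05 as lower (background 2.28%) and 0 as higher, with a median of -0.11. These were 4 as lower and a median of -0.17 without Co4 liver 4.

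Markers of other cells in the liver were read from lists. Of 29 Kupffer cell and macrophage markers, 27 had a difference below 0, 5 an unadjusted p below 0.05 as lower (background 2.28%) and 0 passed, with a median of -0.41. The count of unadjusted members was 3 without Co4 liver 4, for which the background is given above. It was 9 without CITCO liver 1, for which the count over all genes is not given here. The medians were -0.40 and -0.48 in that order. Marco, a scavenger receptor, averaged 7.01 ± 0.844 and 8.48 ± 1.33, and its second probe set differed by -0.46. Vsig4, a complement receptor of Kupffer cells, averaged 7.48 and 8.49. The list means overlapped widely, from 6.66 to 7.81 in CITCO livers and 6.74 to 8.44 in Co4. Co4 had 12 of the 29 higher than the other CMC cohorts, where 9.31% of all genes were higher. With Co4 liver 4 left out it had 8, where 1223 of the 18193 genes were higher. Interferon response genes had a median of -0.11 over 32, led by Cxcl9 (-1.04 ± 0.461), and none passed. Their list mean was 8.39 in Co4 liver 5 and 7.49 to 7.93 in the other Co4 livers, which overlapped the CITCO livers at 7.60 to 7.80. Neutrophil (median -0.08), sinusoidal endothelial (-0.15), cholangiocyte (0.19) and lymphocyte (0.00) markers had 0 members that passed. Without CITCO liver 1 the neutrophil median was -0.18, the cholangiocyte median 0.09 and the lymphocyte median -0.08. The endothelial median was -0.25 without Co4 liver 4.

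Mesothelial markers, of the cells that cover the liver, had a median of 0.32 over 12 genes, with 4 unadjusted as higher (background 2.53%) and 0 that passed. CITCO liver 1 stood apart in them: its list mean was 6.77, while the other 4 treated livers lay between 5.63 and 5.95 and the Co4 livers between 5.59 and 5.72. Gpm6a, for example, measured 6.44, 3.68, 4.33, 4.94 and 3.70 after CITCO and between 3.42 and 3.98 in Co4. Without that liver the median was 0.09 and no member had an unadjusted p below 0.05. Stellate cell and matrix genes averaged 8.46 in the same liver and 6.82 to 7.52 in the other 4 treated livers. Their median difference was 0.06 with it and -0.14 without it. Cyp2c29 was 13.34 in that liver, within the range of the other treated livers.

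Genes of growth, tumours and metabolism showed no call. Of 35 proliferation genes none passed (median -0.06, and -0.10 without Co4 liver 4), with the cycling marker Mki67 at 5.14 and 5.59. Ccnd1, a cyclin of the G1 phase, averaged 9.67 in both groups, and Meg3, an imprinted RNA that was higher after phenobarbital in this series (1.38), averaged 7.28 in both. Gadd45b, a stress gene that CAR activators induce, differed by -0.28 ± 0.293. Of 19 oncofetal genes none passed (median 0.01, and -0.0053 without Co4 liver 4). In bile acid synthesis Cyp7a1, its rate-limiting enzyme, differed by 0.68 ± 0.409, and Cyp8b1, the enzyme of cholic acid, by 0.99 ± 0.315 with 1 Co4 liver within the treated range. Cyp8b1 fell in Co4 against the other cohorts (-1.24), while CITCO against those cohorts gave -0.25 and was not called.

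Of 18 measured male-biased genes the difference was above 0 in 16, with no unadjusted p below 0.05. The median was 0.22, against 0.01 for all genes, and 0.06 in CITCO livers against the other CMC cohorts. The list means ran from 11.07 to 11.34 in CITCO livers. Co4 livers 2 and 3, both at 11.21, lay within that range, and Co4 livers 1, 4 and 5 lay below it, at 10.85, 10.79 and 10.59. Elovl3, a fatty acid elongase, differed by 0.95 ± 0.551 and Hsd3b5, a steroid dehydrogenase, by 0.78 ± 0.841. Hsd3b5 measured 12.34 to 12.76 in the treated livers and 11.61, 12.53, 12.52, 10.90 and 11.32 in Co4. In Hsd3b5 the spread was wider among the controls (SD 0.727) than among the treated livers (SD 0.164). Of 19 female-biased genes none passed and the median was -0.12.

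Clock genes differed little between CITCO and Co4 but set both apart from the other cohorts. Over 22 measured genes the median difference was 0.12 (0.08 without Co4 liver 4 and 0.20 without CITCO liver 1) and 0 passed. Arntl, which encodes the clock activator BMAL1, averaged 5.71 in both groups. Against the other 4 CMC cohorts Arntl fell by 1.51 in CITCO livers and by 1.51 in Co4. In those comparisons 13 clock genes were higher and 4 lower in CITCO livers, where 10.4% of all genes were higher and 5.22% lower. In Co4 13 were higher and 2 lower, where 9.31% and 6.3% of all genes were. The hour of necropsy was not known here.

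The CITCO livers were also set against the mean of the other 4 CMC cohorts, which are not the control the labels name, so that cohort and treatment cannot be told apart. There 1886 genes were higher (10.4%) and 950 lower (5.22%), 66.5% of the calls as higher, 81% when arrays were centred on their medians and 53.6% when quantile normalization was repeated. Co4 against the same cohorts gave 1694 higher and 1147 lower (15.6%), 59.6% as higher, 75.2% and 48.8% under those scalings. Both comparisons use the same 17 control livers. Cyp2c29 rose in CITCO livers (0.47, adjusted p = 5.23e-05) and was not called in Co4. Leaving out Co2 took the counts to 1351 and 1447, and leaving out Co4 liver 4 took the second to 1811.

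**Figure D5:**
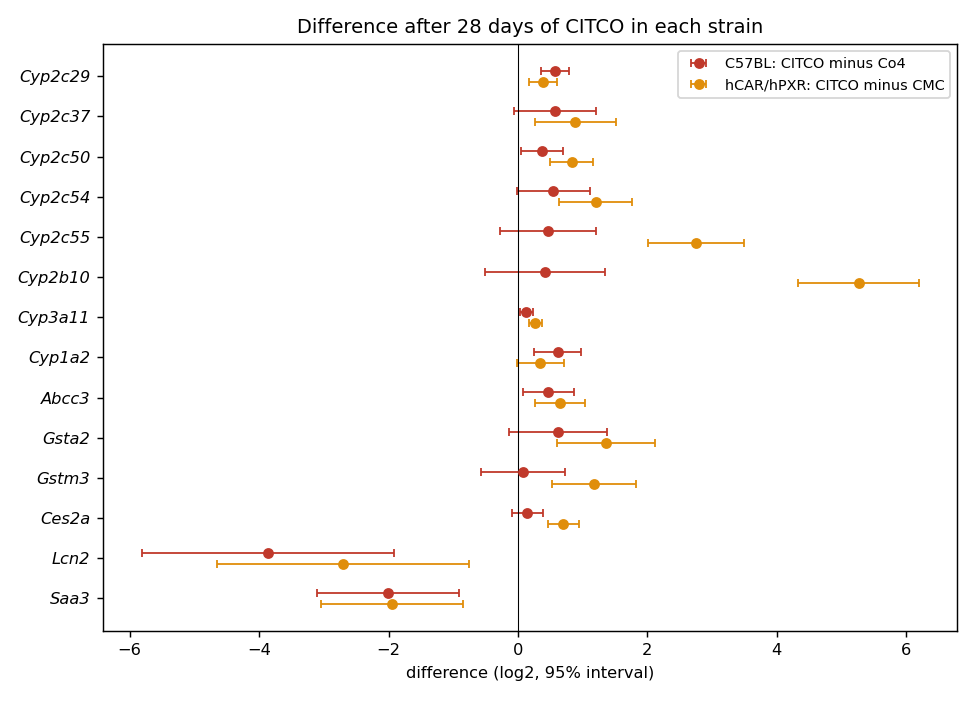
Differences after 28 days of CITCO (log2, with 95% intervals from limma) for 14 genes in C57BL livers against Co4 (red) and in hCAR/hPXR livers against their CMC controls (orange). Cyp2b10 is at 0.42 in C57BL and 5.26 in hCAR/hPXR livers, and Cyp2c29 at 0.57 and 0.39.

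The same dose and time in hCAR/hPXR mice allowed a test of whether the responses differ. Of 18193 genes 1 passed (0.0055%): the response of Cyp2b10 was 4.84 higher in hCAR/hPXR than in C57BL livers (95% interval 3.53 to 6.16, adjusted p = 3.03e-06). In hCAR/hPXR livers it measured 12.22, 11.92, 12.30, 11.75 and 11.23 after CITCO and 6.42, 6.10, 7.65, 5.97 and 6.97 with CMC, so the groups lay far apart. The C57BL livers after CITCO, at 5.87 to 6.22, lay within or below the range of the hCAR/hPXR controls. Without adjustment 367 genes had a p below 0.05 for the difference (2.02%). With only the 4 groups of this test in the model, 2 genes passed.

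Cyp2c29 showed no difference between strains that passed: its response was 0.39 in hCAR/hPXR livers, and the difference of responses was -0.18 with an interval from -0.49 to 0.12. Its level was higher in the hCAR/hPXR controls (13.39) than in Co4 (12.79). Cyp2c55, 2.75 higher after CITCO in hCAR/hPXR livers (adjusted p = 1.25e-06), had a difference of responses of 2.28 (1.24 to 3.33) that missed the threshold at 0.255. For Cyp2c50, which rose in hCAR/hPXR livers (0.83, adjusted p = 0.00642), the difference of responses was 0.46 (-0.01 to 0.92), for Cyp2c54 0.66 (-0.14 to 1.45) and for Cyp2c37 0.32 (-0.57 to 1.22). Of the 38 CAR targets 7 rose in hCAR/hPXR livers and 0 fell (0.077% and 0.022% of all genes), with a median of 0.36, and the difference of responses passed for Cyp2b10 alone. For 11 it had an unadjusted p below 0.05 as larger in hCAR/hPXR livers (background 0.995%), and for 0 as smaller (background 1.02%). Zyg11a had the opposite order, with -0.27 in hCAR/hPXR and 0.51 in C57BL livers, a difference of -0.78 that did not pass (adjusted p = 0.153).

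The acute phase genes were also read in hCAR/hPXR livers against their own controls. The median difference of the 49 genes was -0.45 in hCAR/hPXR livers, where 0 passed, beside -0.49 in C57BL livers. Saa3 gave -1.95 and -2.01, and the difference of responses was 0.06 (-1.49 to 1.62). Il18bp fell in hCAR/hPXR livers (-0.92, adjusted p = 0.0138) beside -0.88 in C57BL livers.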

How the data were processed

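Liver RNA of male mice was labelled with biotin and hybridised to expression arrays, per the labels' protocols. The deposited values are log2 intensities that the authors made with RMA (background correction, quantile normalization and a probe set summary), per the submitters' processing notes, which name RMA. Its version and a genome build are not given in the sources used here. RMA compresses differences near the background and near saturation.

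The table holds 45037 probe sets: 34945 with 1 gene symbol in the platform annotation, 932 with several and 9160 without one here. Each of 18193 genes was read from its single-symbol probe set of highest mean. A model of 19 group means over 91 arrays (72 residual degrees of freedom) was fitted with limma 3.58.1 in R 4.3.3, with a mean-variance trend, and p-values were adjusted by Benjamini and Hochberg over all genes at 0.05. Differences are given with SE, and intervals are 95% and not adjusted. The calculation was tested on simulated data. Groups came from the titles. The CITCO and Co4 livers share replicate numbers, but same-numbered livers did not deviate together (correlations from -0.154 to 0.057), so they were not paired.

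Genes named are Cyp2c29, the 12 of lowest p in each direction with non-overlapping groups, and up to 6 members of each list. The members, gene lists and tests were chosen with earlier results of these data known. Promoters are RefSeq windows on GRCm38.p6, and were searched with Python 3.11.15.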

Additional observations from a re-analysis of the deposited data

Results flagged for a closer look

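Highest and lowest livers were checked with Dixon's test in 110 pairs of a gene and a group of 5 livers (55 genes), and 5 stood apart, where chance alone gives about 1 in 20. In Co4 liver 4, Map1lc3b was 12.24 (next 11.75), Apex1 was 10.57 (next 9.79) and Cyp2c55 was 6.19 (next 6.94). In CITCO liver 3, Apex1 was 9.16 (next 9.47), and in CITCO liver 1, Gsta2 was 11.25 (next 10.38). Of the 5, 3 lie in Co4 liver 4, the liver that also leads the first principal component.

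The response of Cyp2b10 to CITCO differed between strains by the test of the difference itself, by 4.84 on the log2 scale, higher in hCAR/hPXR livers.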

How the results depend on the processing

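The count of genes called in CITCO against Co4 was 0 with only these 2 groups in the model and 0 to 2 with 1 liver left out. It was 1896 against all 5 CMC cohorts, and with another cohort in place of Co4 it was 2621 (Co1), 5734 (Co2), 86 (Co3) and 593 (Co5); the cause was not tested. Cyp2c29 kept its direction under every alternative run, at 0.57 with an adjusted p of 0.0947 in limma with only the 2 groups, 0.384 with 0.141 against Co3, and 0.516 to 0.610 with 0.0217 to 0.180 without 1 liver, where 7 of 10 settings lost the call. With the replicate number as a block, which the pairing check does not support, the count was 1, Cyp2c29 was 0.57 (adjusted p = 0.0421) and the strain test called 1 gene. The strain test called 2 genes with only its groups and 1 to 2 without 1 liver. Against the other 4 cohorts, CITCO had 1351 genes without Co2 and 2220 to 3189 without 1 liver. Co4 had 1702 with only its groups, 1447 without Co2 and 1811 to 3149 without 1 liver, the lowest without Co4 liver 4. For single named genes and list medians together, 1891 values under alternatives stayed within their criterion and 15 moved. A gene stayed within it if it kept its sign and still passed or still did not pass, whatever the size of its difference. A gene that did not pass could also change sign by less than the larger group SD. A list median stayed within it if it shifted by less than the SD of the Co4 list means. The counts therefore do not measure how steady the sizes were. None was labelled reversed, but that label was kept for genes that passed. List medians could not receive it, and some of them changed sign, as given above. With 5 livers a group, the spread between livers limits what differences can be called.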
